A study of Mus musculus with 17 samples.

Results

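Of 17 mouse liver RNA-seq libraries, 6 held almost no reads of Gm5345, a processed pseudogene on chromosome 8, and 11 held 12 or more reads each. The 6 were chosen by their normalized count of Gm5345 in the authors' deposited table, which was below 10, and the other 11 were at 10 or more. The split was thus made from measured values, and the level of Gm5345 itself is given as a description only. Just inside the threshold lay 1.64 (Gata4LKO vehicle replicate 7), and just outside it 23.1 (Gata4LKO GW3965 replicate 17).

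All mice were male, of a strain labelled mixed, 11 weeks old per the sample labels (the series' design text gives a younger age), and carried 2 floxed Gata4 alleles, so that Cre recombinase deletes this gene for a zinc-finger DNA-binding protein. At 10 weeks they received an adeno-associated virus of serotype 8. In the Gata4LKO groups it carried Cre under the Tbg promoter, which is active in hepatocytes, and in the control groups it was empty, so control mice lacked the Cre cargo as well as the deletion. After 1 week the mice were gavaged 17 h and 8 h before sacrifice with 40 mg/kg GW3965, which activates the liver X receptors, or with the vehicle (dimethylsulfoxide in canola oil), and they were fasted for 4 h. The 6 libraries without Gm5345 reads were 4 of 4 Gata4LKO vehicle and 2 of 4 control GW3965 libraries. None of 4 control vehicle and none of 5 Gata4LKO GW3965 libraries was among them. Because 1 whole group made up 4 of the 6, the split and that group's genotype and treatment cannot be told apart there. The control GW3965 group, replicates 9 and 10 without the reads against replicates 12 and 13 with them, is the only one in which mice of the same labels fall on both sides. The 6 libraries are replicates 5 to 10, and the 11 are replicates 1 to 4 and 12 to 18. Within control GW3965 the split thus also runs with replicate number, and these cannot be told apart. Groups follow the sample titles. In 8 libraries, those of Gata4LKO vehicle and control GW3965, the treatment label contradicts the title, and all 6 libraries without the reads are among these 8. Within control GW3965 the 4 libraries carry the same labels whichever of them is right.

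A processed pseudogene is a copy of a messenger RNA that was reverse transcribed and inserted back into the genome, as a rule without introns and without the promoter of its parent gene. Gapdh, the gene of a glycolytic enzyme, has left a large family of such copies in rodent genomes. Most copies are not transcribed, and the reads of those that are can be hard to tell from reads of the parent.

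Gm5345 (ENSMUSG00000098050) lies on the minus strand at chr8:40853828-40855027 of the mm10 build, between Adam39 (26.8 kb away) and the long noncoding RNA gene Gm26584 (7.37 kb away), in the GENCODE M21 annotation. Its annotated transcript is 1014 bases long in 2 exon blocks. It aligned to Gapdh with 90.7% identity over 1016 alignment positions, with 76 mismatches and 19 gap positions. A stretch of 120 bases of each is shown because it tells how a read of Gm5345 can be recognised. This stretch was picked for having the most differences, so other gap-free stretches of its length differ at no more positions. Letters in capitals mark the 14 positions at which they differ. The stretch covers bases 856 to 975 of the Gm5345 transcript and bases 933 to 1052 of the Gapdh transcript, 5′ to 3′.
Gm5345: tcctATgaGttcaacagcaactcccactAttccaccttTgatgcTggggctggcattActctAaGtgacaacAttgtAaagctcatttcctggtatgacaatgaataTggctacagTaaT
Gapdh: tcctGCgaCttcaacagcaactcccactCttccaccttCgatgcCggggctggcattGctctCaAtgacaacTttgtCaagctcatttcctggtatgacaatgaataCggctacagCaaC
The longest run without a difference between the whole transcripts was 62 bases. In all, 286 annotated genes aligned over at least 90% of the Gm5345 transcript, at 67.4% to 91.8% identity, and 243 of them are in the deposited table. How reads that match several copies were counted is not given in the sources used, so levels of Gm5345 and Gapdh are uncertain to that extent.

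The Gm5345 split was wide. In control vehicle livers (replicates 1 to 4) its normalized counts were 30.3, 49.0, 53.9 and 66.0. Gata4LKO vehicle livers (replicates 5 to 8) had 0.667, 0, 1.64 and 0.876. In control GW3965 livers they were 0.833 and 1.00 in replicates 9 and 10 but 35.8 and 43.8 in replicates 12 and 13. The 5 Gata4LKO GW3965 livers (replicates 14 to 18) had 101, 40.9, 98.4, 23.1 and 56.9. The 6 low libraries together held 6 Gm5345 reads in 114 M (megareads) assigned to genes, and the 11 others 608 reads in 180 M, which is 0.0528 against 3.37 reads per M reads. The ratio of these rates was 63.8, a size that the choice of libraries fixes in part. No library lay between 1.64 and 23.1.

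Sequencing depth overlapped between the sides. The 6 held 14.9 to 22 M reads in genes and the 11 held 11.8 to 19.6 M. Genes above 0 numbered 15515 to 19729 in the 6 and 15601 to 19305 in the 11. Over 10% of normalized counts came from mitochondrially encoded genes in 1 of the 6 (replicate 10) and in 4 of the 11, replicate 13 of control GW3965 among them, so each side of the contrast within control GW3965 holds 1 such library. Xist was at most 7.89 and Ddx3y at least 1588 in every library, as in male tissue. Gata4 overlapped between the sides, at 137 to 254 in the 6 and 128 to 260 in the 11, and Gata4LKO vehicle livers (181, 137, 234 and 223) were not below control vehicle livers (128, 169, 183 and 132). The gene-level count does not separate reads of the floxed part from other Gata4 reads. Within control GW3965, Gata4 differed by -0.18 ± 0.30 (log2, ± SE) without minus with Gm5345 reads, adjusted p = 1.000 in the limma fit. Hepatocyte markers were high throughout: their normalized counts summed to 1976509 to 2280205 in the 6 and 1841382 to 2849102 in the 11.

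Of 13378 genes that passed the filter on low values, 9 followed the split, in that no library of the 6 overlapped any of the 11. They were 5 that were lower in the 6 (0.0374% of genes tested) and 4 that were higher (0.0299%). Gm5345 is left out of these counts. The filter asks for 4 libraries or more at a normalized count of 10 or above and can be met through the 11 libraries alone, as it was for Gm5345, Gm16348 and Gm10032, so a lower level in the 6 is built into their passing it. No test over the 6 and the 11 was used to choose or judge genes, since measured values made the groups. The additive fit given further on as an alternative has such a term, and its calls are a description only. Among the settings that leave out 1 library, both counts moved most without control GW3965 replicate 10, to 18 lower and 10 higher. Without the 5 libraries of high mitochondrial share they were 44 and 26.

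Gm16348 followed the split most closely. It is a noncoding gene (ENSMUSG00000085445, annotated as a processed transcript) on the plus strand at chr8:41218139-41220894, 363 kb from Gm5345. It starts 2.98 kb beyond Fgl1, a gene for a protein that hepatocytes secrete, and ends 18.9 kb before Pcm1, which encodes a protein of centriolar satellites. GENCODE M21 lists 2 transcripts for it, the longer with 2385 bases. The first 120 bases of that transcript are shown, since no gene name tells what this RNA is.
Gm16348: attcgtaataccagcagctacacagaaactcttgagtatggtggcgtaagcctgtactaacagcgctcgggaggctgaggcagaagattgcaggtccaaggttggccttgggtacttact

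Normalized counts of Gm16348 were 98.5, 64.6, 38.8 and 151 in control vehicle livers and 0.667, 0, 0 and 0 in Gata4LKO vehicle livers. In control GW3965 they were 0 and 0 in replicates 9 and 10, against 43.7 and 195 in replicates 12 and 13. Gata4LKO GW3965 livers had 155, 53.1, 153, 100 and 165. A single read of Gm16348 was thus counted in the 6 libraries, in Gata4LKO vehicle replicate 5, and 1147 reads in the 11. The rates were 0.00881 and 6.36 reads per M, a ratio of 722 with an exact 95% interval of 129 to 28539 that covers counting error only. On the log2(normalized count + 1) scale the lowest of the 11 stood 4.58 above the highest of the 6, and for Gm5345 itself this gap was 3.19. Gaps of the 8 other genes were 0.01 to 0.14.

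**Figure D1:**
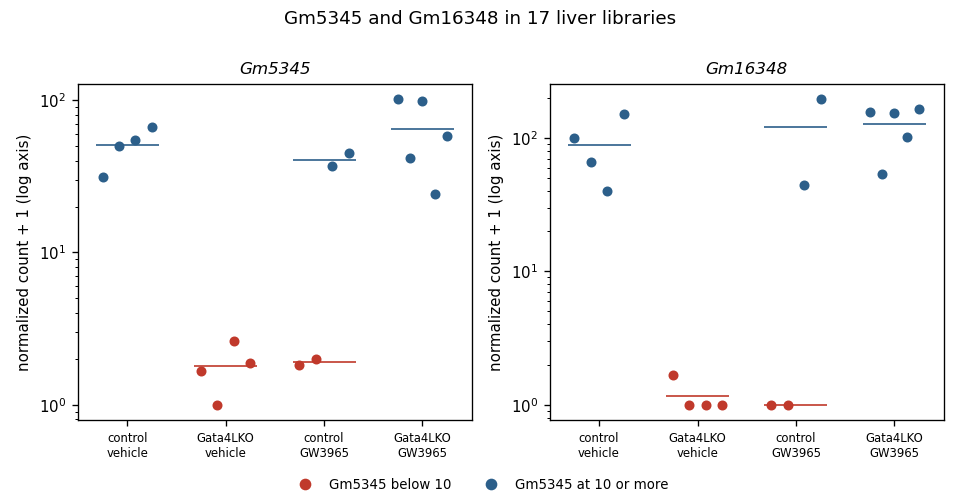
Normalized count + 1 on a log axis of Gm5345 and Gm16348 in each of the 17 libraries, by group. Points are libraries, red below 10 for Gm5345 and blue at 10 or more, and bars are means of the points of 1 colour in a group. The 4 Gata4LKO vehicle libraries and 2 of 4 control GW3965 libraries are near 0 for both genes.

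The contrast within control GW3965, where genotype and treatment are equal on both sides, called 2 genes at an adjusted p below 0.05 in limma, both lower without Gm5345 reads (0.0149% of genes tested). None was called higher (0%). At an unadjusted p below 0.05 there were 393 of 13378 genes, a share below the 0.05 that chance alone gives. Gm16348 was 1 of the 2: its log2 difference was -6.55 ± 0.70 (SE), adjusted p = 6.35e-04. Replicates 9 and 10 held 0 Gm16348 reads in 39.1 M, which allows up to 0.0768 reads per M (3 reads over both), and replicates 12 and 13 held 197 reads in 34.0 M, 5.79 reads per M. The level was therefore at least 75.4-fold higher in replicates 12 and 13 together, at least 35.0-fold in replicate 12 (50 reads) and at least 124-fold in replicate 13 (147 reads). The call rested on spread shared over all 5 parts of the fit. Gata4LKO vehicle livers (0 to 0.667) and replicates 9 and 10 (both 0) lay at the floor and added almost no spread. Gm16348 also passed the filter only through libraries in which it was high, so its p-value is a description. With the 4 control GW3965 libraries fitted alone the adjusted p was 0.0972, and without the 5 libraries of high mitochondrial share, which leaves 1 against 1 library there, it was 0.259.

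Rpl35a, a protein of the large ribosomal subunit, was the other call. Its normalized counts were 90.8 and 82.0 in replicates 9 and 10 and 547 and 685 in replicates 12 and 13, a log2 difference of -2.81 ± 0.40 with an adjusted p of 0.0159 in limma. It did not follow the split elsewhere: Gata4LKO vehicle livers, which lack Gm5345 reads, had 316, 340, 520 and 505, within the 257 to 645 of control vehicle livers and the 270 to 606 of Gata4LKO GW3965 livers. Rpl35a was low in replicates 9 and 10 alone among the 17. Like Gapdh, ribosomal protein genes have many processed copies, so its counts are uncertain where reads were split between copies. The call was lost when any 1 of the 4 control GW3965 libraries was left out, with adjusted p from 0.0765 to 0.330.

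Among the other genes that followed the split, Gm10032 (ENSMUSG00000057913), a long intergenic noncoding RNA, was low in all libraries. It lies at chr14:66784480-66793758, 3.51 Mb from Gata4 on the same chromosome. Control vehicle livers had 16.4, 16.7, 20.8 and 9.71, and Gata4LKO vehicle livers 5.34, 0, 3.28 and 7.89. Control GW3965 livers had 2.50 and 3.00 without Gm5345 reads but 13.1 and 25.2 with them, and Gata4LKO GW3965 livers 20.4, 8.17, 10.9, 19.3 and 11.2. The nearest libraries, 7.89 and 8.17, were 9 and 10 reads. Within control GW3965 the log2 difference was -2.36 ± 0.81, adjusted p = 1.000.

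Enpp6, a membrane-bound choline phosphodiesterase, is the only other gene of chromosome 8 among the 9, at chr8:46986887-47096762 and 6.13 Mb from Gm5345. Its counts were 44.2, 98.0, 64.3 and 89.3 in control vehicle livers and 33.4, 5.26, 23 and 28.9 in Gata4LKO vehicle livers. Control GW3965 livers had 16.7 and 42.0 without Gm5345 reads and 70.8 and 66.4 with them, while Gata4LKO GW3965 livers had 129, 80.1, 48.7, 110 and 87.1. The antisense genes Gm45600 and 4930579M01Rik overlap Enpp6, and their reads cannot be told from those of Enpp6 unless strand was used in counting, which no source used here states. The difference within control GW3965 was -1.34 ± 0.66 on the log2 scale, adjusted p = 1.000.

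The remaining lower genes differed less. Des (chr1:75360329-75368579) encodes desmin, an intermediate filament of muscle that also marks stellate cells in rodent liver. It ranged from 28.7 to 38.0 in the 6 and from 38.8 to 75.6 in the 11. Cemip2 (chr19:21778342-21858360), a cell-surface enzyme that degrades hyaluronan, ranged from 202 to 242 in the 6 and from 254 to 391 in the 11. Within control GW3965, Cemip2 was 213 and 218 against 340 and 324, a log2 difference of -0.62 ± 0.19, and Des was 30.8 and 38.0 against 40.2 and 45.2, a difference of -0.31 ± 0.31. Neither was called (adjusted p = 1.000 for both).

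Of the 4 higher genes, Tbcel (chr9:42412316-42507809), which encodes a relative of a tubulin-folding cofactor, had the widest gap. Its counts were 1519 to 2178 in the 6 and 1106 to 1375 in the 11. Within control GW3965 it was 1904 and 1687 against 1167 and 1198, a log2 difference of 0.60 ± 0.16 with an adjusted p of 0.880 in limma. Bdh1 (chr16:31422280-31458901) encodes the mitochondrial enzyme that interconverts the ketone bodies acetoacetate and 3-hydroxybutyrate. It was at 3061 to 3532 in the 6 and 2041 to 2986 in the 11, and within control GW3965 at 3515 and 3532 against 2426 and 2047, a difference of 0.66 ± 0.16, adjusted p = 0.580.

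Rnf43 (chr11:87662722-87735539) encodes a ubiquitin ligase that removes Wnt receptors from the cell surface. It ranged from 402 to 607 in the 6 and from 202 to 393 in the 11, with 451 and 407 against 347 and 247 within control GW3965. Fbxl21 (chr13:56522472-56537898) encodes an F-box protein that acts on the stability of cryptochromes, the repressors of the circadian clock. It ranged from 28.0 to 38.0 in the 6 and from 6.96 to 27.9 in the 11, and the gap of 0.01 on the log2 scale lay between 2 control GW3965 libraries, replicate 10 at 28.0 and replicate 13 at 27.9. Neither was called within control GW3965 (log2 differences 0.55 ± 0.28 and 0.27 ± 0.61, adjusted p = 1.000 for both).

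**Figure D2:**
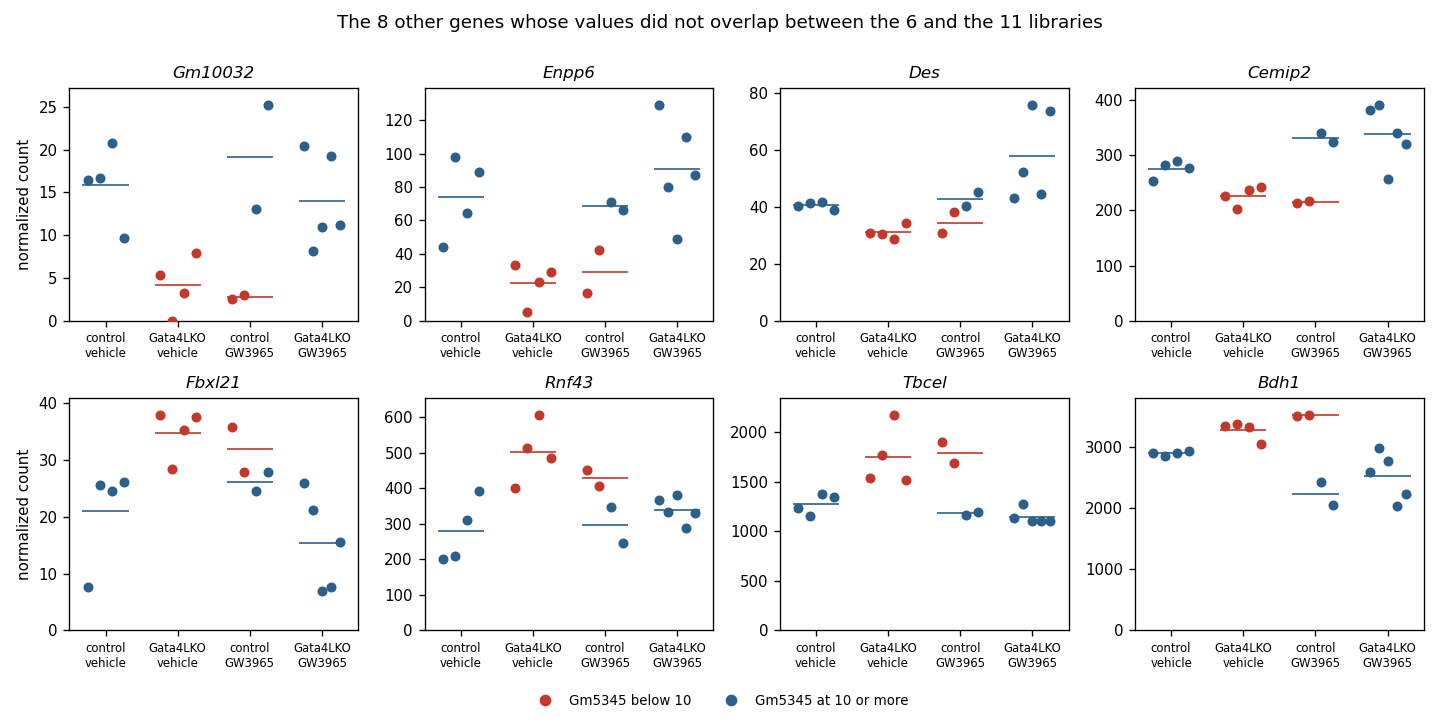
Normalized counts, on linear axes from 0, of the 8 other genes that followed the split, by group. Points are libraries, red with Gm5345 below 10 and blue at 10 or more, and bars are means of the points of 1 colour in a group. Every red point lies below every blue point in the upper row and above every blue point in the lower row, with gaps of 0.01 to 0.14 on the log2(normalized count + 1) scale.

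All 9 genes remained non-overlapping with TMM scaling. Leaving out libraries, 1 at a time or those of high mitochondrial share, cannot make separated values overlap, so those settings could not remove any of the 9. In the authors' deposited tables, Gata4LKO against control with vehicle and GW3965 against vehicle in Gata4LKO each set livers without Gm5345 reads against livers with them. Both use the same 4 Gata4LKO vehicle livers, on which the genes were also chosen, so their values are given as a description. The log2 fold changes in the authors' deposited tables were -8.43 and 8.94 for Gm16348, -1.91 and 1.71 for Gm10032, -1.69 and 1.99 for Enpp6, -0.39 and 0.90 for Des, and -0.28 and 0.57 for Cemip2. For the higher genes the authors' deposited tables give 0.72 and -1.11 for Fbxl21, 0.85 and -0.56 for Rnf43, 0.45 and -0.61 for Tbcel, and 0.18 and -0.38 for Bdh1. In the authors' first comparison, adjusted p was below 0.05 for Gm16348, Enpp6 and Rnf43 and missing for Gm10032. It was 0.294 to 0.966 for Des, Cemip2, Fbxl21, Tbcel and Bdh1. In their second, it was below 0.05 for Gm16348, Enpp6, Des, Cemip2 and Tbcel. For Gm10032, Fbxl21, Rnf43 and Bdh1 it was 0.119 to 0.265. For GW3965 against vehicle in control livers, where the GW3965 group holds both kinds of library, the authors' deposited table gives -1.30 for Gm5345 and -0.57 for Gm16348.

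Position on chromosome 8 was described in distance classes from Gm5345. Chromosome 8 holds 733 of the genes tested (5.48%) and 2 of the 9 that followed the split. Up to 1 Mb away, 1 of 13 genes followed it (Gm16348). From 1 to 5 Mb none of 16 did, from 5 to 20 Mb 1 of 117 (Enpp6), and beyond 20 Mb none of 587. The median absolute log2 difference within control GW3965 was 0.26, 0.23, 0.17 and 0.19 in these classes and 0.17 over all genes tested.

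The nearest expressed neighbours of Gm5345 and Gm16348, named for their position, overlapped between the sides. Slc7a2, a cationic amino acid transporter that starts 7.37 kb from Gm5345, ranged from 18708 to 29943 in the 6 and from 16654 to 29436 in the 11. Fgl1 and Pcm1, on either side of Gm16348, had log2 differences over the split of 0.04 and -0.35. Within control GW3965, Fgl1 was 7226 and 5091 against 1996 and 4815 (0.97 ± 0.48), and Pcm1 was 388 and 622 against 462 and 857 (-0.36 ± 0.41), neither called in limma (adjusted p = 1.000). Mtmr7, a myotubularin-related phosphatase 219 kb from Gm5345 on its other side, was 148 and 198 against 76.9 and 35.9, a log2 difference of 1.69 ± 0.63 with an adjusted p of 1.000. Over the 17 libraries Mtmr7 overlapped, at 107 to 198 in the 6 and 22.3 to 111 in the 11, a log2 difference of 1.13.

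**Figure D3:**
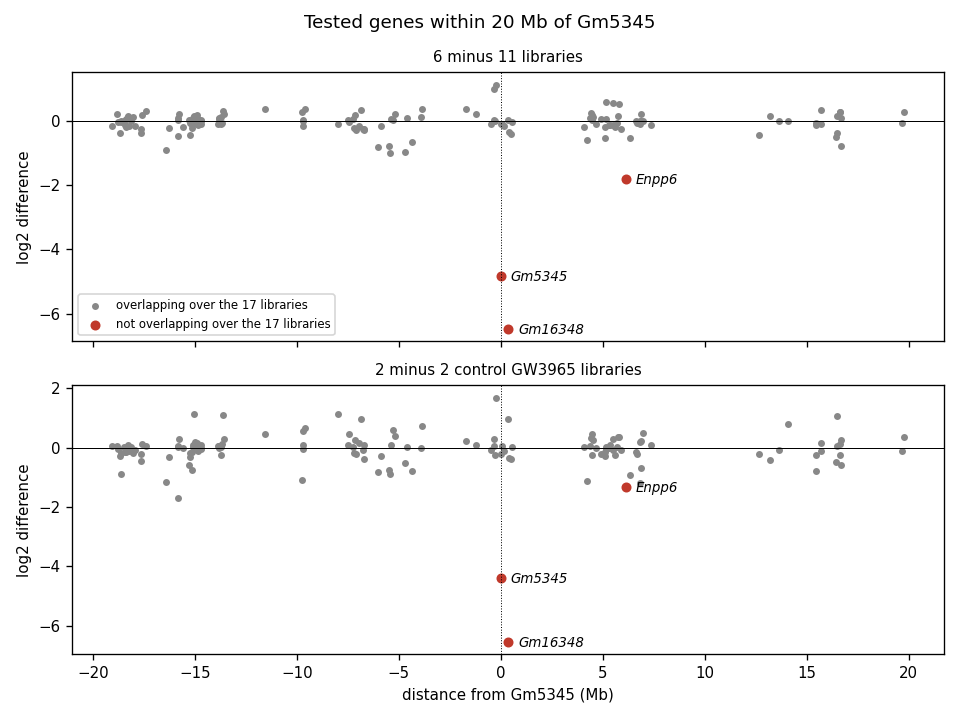
Log2 difference of each tested gene within 20 Mb of Gm5345 against its distance in Mb, for the 6 minus the 11 libraries (top) and for replicates 9 and 10 minus 12 and 13 of control GW3965 (bottom). Red points are Gm5345, by which the libraries were chosen, and the 2 genes that did not overlap over the 17 libraries, Gm16348 at -6.49 and Enpp6 at -1.82 in the upper panel, and grey points are genes that overlapped.

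To see whether more genes go with the split than the strict rule finds, genes were first taken from 13 libraries and then looked at in the 4 of control GW3965, which had no part in their choice. Between the 4 Gata4LKO vehicle livers and the 9 control vehicle and Gata4LKO GW3965 livers, 59 genes did not overlap and were lower (0.441% of genes tested) and 29 were higher (0.217%). In the 4 control GW3965 livers, 9 of the 59 (15.3%) were lower in both replicates 9 and 10 than in both replicates 12 and 13, and 2 were separated the other way. Over all genes tested, 12.1% were separated so. Of the 29 higher genes, 10 (34.5%) were higher in replicates 9 and 10, against 12.2% of all genes tested, and 1 was separated the other way. The counts rested on single libraries: without Gata4LKO vehicle replicate 8 they were 123 lower and 78 higher in the remaining 12, of which 24 (19.5%) and 24 (30.8%) were separated again. Without control GW3965 replicate 10, which leaves 1 library against 2, 39 of the 59 (66.1%) and 20 of the 29 (69.0%) were, against 31.3% and 31.9% of all genes tested. Without replicate 12 the shares were 49.2% and 58.6%, against 33.0% and 34.6%. Leaving out replicate 9 gave 20.3% and 41.4%, against 29.7% of all genes in either direction. Leaving out replicate 13 gave 20.3% and 37.9%, against 29.7% and 28.7%. With all 4 libraries the share among the lower genes was thus close to that of all genes. It was above that of all genes without replicate 10 or 12 and below it without replicate 9 or 13. The share among the higher genes was above that of all genes in each of these settings. No test was made of these shares, since genes are not independent replicates.

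The 19 genes found again comprise the 9 described above and 10 more, which the rule for named genes does not cover and which were chosen after their values were seen. The 4 more that were lower are Gm37163, Cpm (carboxypeptidase M), Lgalsl and Ypel2. Gm37163, which overlaps another annotated locus, was 30.0, 10.5, 11.5 and 22.8 in Gata4LKO vehicle livers and 35.7 to 89.7 in the 9 others. In control GW3965 it was 13.3 and 26.0 against 28.9 and 71.7, a log2 difference of -1.24 ± 0.51 (adjusted p = 1.000).

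The 6 more that were higher include Pik3ap1, an adaptor of phosphoinositide 3-kinase, Ugt2b5, a glucuronosyltransferase, Sipa1l2, Zfyve26 and 2900089D17Rik, an antisense RNA. Pik3ap1 was 1031, 1102, 1116 and 1316 in Gata4LKO vehicle livers and 590 to 842 in the 9 others. In control GW3965 it was 813 and 887 against 618 and 555, a log2 difference of 0.54 ± 0.15 (adjusted p = 0.987). Ugt2b5 was 11078 to 13277 in Gata4LKO vehicle livers, and its 4 values in control GW3965, 9492 and 9436 against 8785 and 8450, all lay within the 6838 to 10154 of the 9 others. None of the 10 was called within control GW3965 in the limma fit with 5 coefficients. The additive fit of genotype, treatment and split called Gm37163 and Pik3ap1. Its split term runs over the same libraries in which these genes were found, so this call is not independent of their choice.

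**Figure D4:**
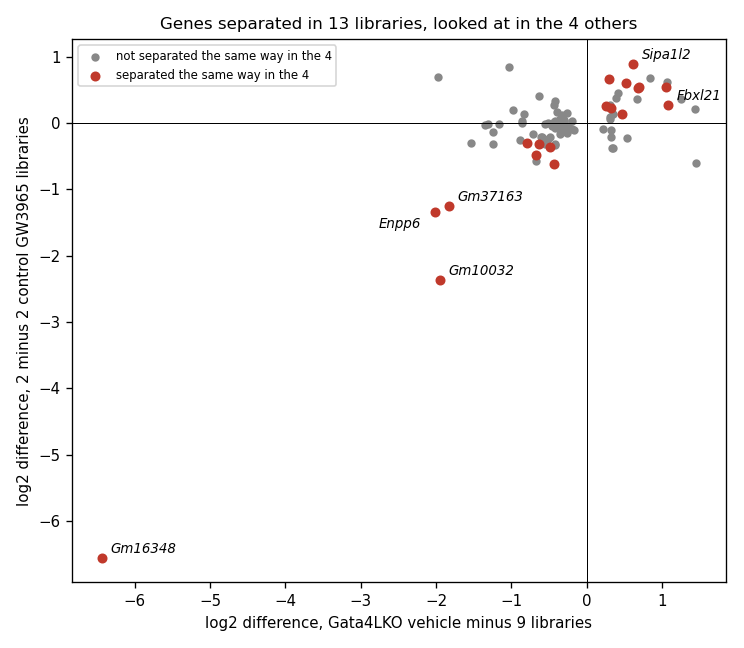
Log2 difference of 88 genes, the 59 lower and 29 higher ones, between Gata4LKO vehicle livers and the 9 livers of control vehicle and Gata4LKO GW3965 (horizontal) and between replicates 9 and 10 and replicates 12 and 13 of control GW3965 (vertical). Red points are the 19 genes separated the same way in both, Gm16348 lies at -6.44 and -6.55, and 41 of the 59 lower and 22 of the 29 higher genes had the same sign in both.

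Gene lists for liver pathways and cell types were set beside all genes tested, for which the median log2 difference was 0.01 over the split and 0.00 within control GW3965. Members named from here on were chosen after their values were seen, except Des. In the 22 lists, 1 member did not overlap over the 17 libraries (Des, in the stellate cell list) and none was called within control GW3965 in the limma fit. DESeq2 called Mylip, a liver X receptor target, and the fit without libraries of high mitochondrial share called Marco, a Kupffer cell marker. Of all genes tested, only 0.0374% followed the split as lower and 0.0299% as higher, so a short list without such a gene says little. None of the 17 liver X receptor targets followed the split. Within control GW3965 7 of them were lower and 10 higher without Gm5345 reads, with a median of 0.05. Of 14 genes known to differ between mouse strains, none followed the split, and 2 were separated and higher within control GW3965, near the 12.2% of all genes tested. None of 24 genes of the major histocompatibility complex followed the split. None was separated within control GW3965 either, where 12.1% of all genes tested were separated and lower and 12.2% higher. Kupffer cell and macrophage markers and cholangiocyte markers had medians of -0.01 within control GW3965, and lymphocyte and recruited myeloid markers -0.32, with 5 of 11 higher.

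Liver sinusoidal endothelial markers, genes of the fenestrated vessel lining of the liver, lay in 1 direction within control GW3965 without being called. All 14 were lower in replicates 9 and 10 by the fitted difference, with a median of -0.55, and 11 of 14 were separated there, against 12.1% of all genes tested. Summed normalized counts were 6274 and 6482 in replicates 9 and 10 and 10371 and 8140 in replicates 12 and 13. Over the whole split the sums overlapped, at 6274 to 7348 in the 6 and 6132 to 10371 in the 11, and no member separated the 17 libraries. Bmp2, a growth factor that endothelium sends to hepatocytes, was 293 and 234 against 416 and 441 (log2 difference -0.71 ± 0.24). Elsewhere Bmp2 was 270 to 310 in control vehicle livers, which have Gm5345 reads, and 254 to 321 in Gata4LKO vehicle livers, which lack them. Gata4LKO GW3965 livers had 289 to 599. Lyve1, a hyaluronan receptor, was 64.2 and 39.0 against 83.1 and 120 (-0.98 ± 0.62), and the scavenger receptor gene Stab2 was 763 and 798 against 1469 and 914 (-0.57 ± 0.24). Adjusted p was 1.000 for each in limma. In whole liver, fewer cells of a type and less RNA per cell cannot be told apart.

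The list of blood, adipose and pancreas genes was likewise lower in replicates 9 and 10 for 8 of 8 tested members, with a median of -0.72, and 5 were separated and lower, against 12.1% of all genes tested. The beta-globin gene Hbb-bs was 440 and 382 against 735 and 1065 (-1.11 ± 0.48, adjusted p = 1.000). The summed level of the list was 1966 and 2185 against 3108 and 3178. The part of these markers in the other differences within control GW3965 was not tested.

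Circadian clock genes differed within control GW3965 in both directions. Of 16 tested, 4 were separated and lower in replicates 9 and 10 (Arntl, Clock, Cry1 and Nfil3) and 7 were separated and higher (Per1, Per2, Nr1d1, Nr1d2, Dbp, Bhlhe40 and Bhlhe41), against 12.1% and 12.2% of all genes tested. Arntl, the transcription factor BMAL1 at the core of the clock, was 23.3 and 48.0 against 70.8 and 108, a log2 difference of -1.35 ± 0.63. Nr1d1, the repressor REV-ERB alpha that acts on Arntl, was 988 and 757 against 379 and 460 (1.05 ± 0.35). Dbp, an activator under direct control of the clock, was 2144 and 1131 against 1035 and 749 (0.82 ± 0.35). None was called in limma (adjusted p = 1.000 for each).

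Over the 17 libraries every clock gene of the list overlapped. Arntl was 34.0, 11.6, 14.8 and 49.9 in Gata4LKO vehicle livers, which lack Gm5345 reads, and 119, 124, 63.4 and 46.6 in control vehicle livers, while Gata4LKO GW3965 livers with the reads had 34.7 to 80.9. Fbxl21, whose product acts on cryptochromes, is not in the list.

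**Figure D5:**
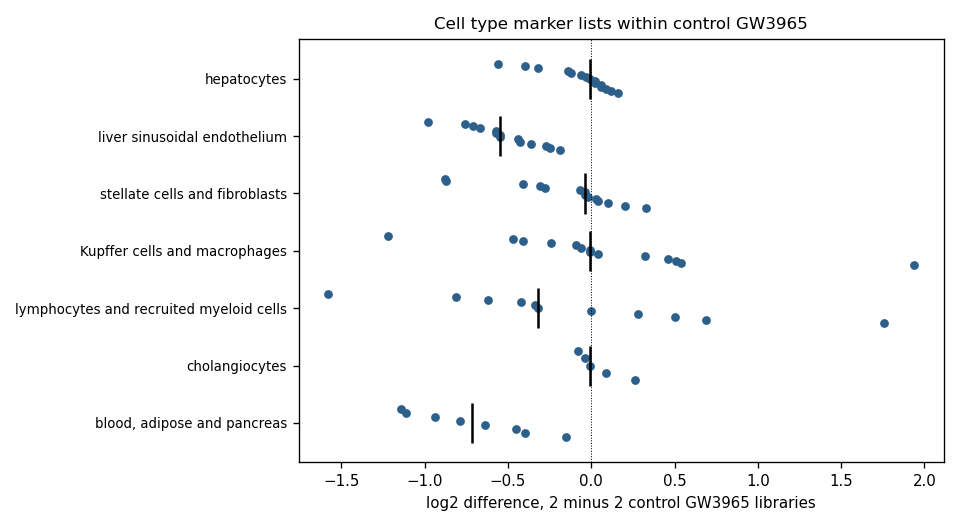
Log2 difference within control GW3965, replicates 9 and 10 minus replicates 12 and 13, of each tested marker in 7 cell type lists. Points are genes, spread vertically for visibility, and black bars are list medians: -0.55 for sinusoidal endothelium, -0.72 for blood, adipose and pancreas, and -0.01 to -0.04 for hepatocytes, Kupffer cells, cholangiocytes and stellate cells.

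Gapdh, whose sequence Gm5345 shares, did not follow the split. Its normalized counts were 46.7, 101, 113 and 168 in control vehicle livers and 88.1, 144, 58.3 and 107 in Gata4LKO vehicle livers. Control GW3965 livers had 123 and 129 without Gm5345 reads against 89.2 and 78.4 with them, and Gata4LKO GW3965 livers ranged from 38.5 to 132. The difference within control GW3965 was 0.59 ± 0.55 on the log2 scale, adjusted p = 1.000 in limma. In the 11 libraries the Gm5345 count was 31.1% to 124% of the Gapdh count, and in the 6 it was 0% to 2.82%. How reads matching several copies were counted is not given, so the level of Gapdh is uncertain to that extent. Among the copies that align best to Gm5345, Gm12070 is in the table at 0 to 16.9 and did not pass the filter. Gm2574 and Gm5138 are absent from the table, so they have no values here.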

How the data were processed

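Per the labels' protocols, RNA of frozen liver was made into libraries with a KAPA mRNA Hyperprep kit. STAR 2.6.0c, FastQC, DESeq2 and the mm10 build are named in the submitters' processing notes, and neither read counter, strand setting nor annotation is given in the sources used here. The authors deposited 1 table of normalized counts, a signal per gene and library, and tables of comparisons with a log2 fold change and an adjusted p-value, per the file headers. Each library's values were whole multiples of what 1 read was worth (100% within 0.05 read), so reads were recovered by division, and edgeR's quasi-likelihood test on them called 2 genes. Of the columns, none was left unused.

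The libraries compared, the genes and the 22 lists were chosen with earlier results of these data known. A gene was tested when 4 or more of 17 libraries had a normalized count of 10 or above, which left 13378 genes besides Gm5345. A gene followed the split when no library of 1 side overlapped the other. Differences within control GW3965 come from 1 limma-trend fit on log2(normalized count + 1), which understates changes of low genes, with 5 coefficients for the groups, control GW3965 in 2 parts, 12 residual degrees of freedom, and Benjamini-Hochberg adjustment over the 13378 genes (limma 3.58.1, edgeR 4.0.16, DESeq2 1.42.0, R 4.3.3). These fits and counts were tested on simulated data. No label says that libraries come from separate animals, so p-values measure the spread between these libraries. The groups share no replicate numbers.

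Libraries held 11.8 to 22 M reads in genes. Intervals are exact Poisson or Clopper-Pearson 95% intervals and, like the limit of 3 reads for a count of 0, cover counting error only, since no molecular identifiers are stated. Transcripts of GENCODE M21, whose mm10 build is that of the files, were aligned to Gm5345 with blastn 2.17.0, and 24656 of 24676 gene identifiers had a position. Named genes are Gm5345, Gata4, the up to 15 genes per direction with the largest difference among those that followed the split, the up to 10 per direction called within control GW3965, the up to 10 that followed it nearest to Gm5345, the up to 3 that align best to it, and up to 3 such members of each list. Alternatives changed the pseudocount, filter, scaling, test, threshold of Gm5345, covariates and libraries. A gene among those separated again is counted but not reported here by name.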

Additional observations from a re-analysis of the deposited data

Results flagged for a closer look

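In 4 of 52 sets of 4 or 5 libraries examined, 1 library stood apart from its group by more than the 95% critical value of Dixon's test. Chance alone gives about 1 in 20. In Gata4LKO vehicle livers, replicate 5 had a normalized count of 0.667 for Gm16348, which is 1 read, and the other 3 were at 0. For Fbxl21, control vehicle replicate 1 was at 7.58, below the 24.6 to 26.2 of the other 3, and this library had a high mitochondrial share (19.0% of normalized counts). For Tbcel, Gata4LKO GW3965 replicate 15 was at 1275, above the 1106 to 1131 of the other 4. For Bdh1, Gata4LKO vehicle replicate 8 was at 3061, below the 3333 to 3377 of the other 3, and it was also the library of the 6 nearest to the 11.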

How the results depend on the processing

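No paired analysis was possible because the groups share no replicate numbers. All 9 genes that followed the split did so in each of the 17 leave-outs, an outcome fixed in advance because removing libraries cannot undo a separation. The counts of such genes depend on how many libraries must agree, so leaving libraries out adds genes by construction. Leaving out each library in turn, genes that were lower over the 17 libraries numbered 5 to 18 (over 1.5 times the 5 without replicate 5, 8, 10, 12 or 18) and higher ones 4 to 10 (without replicate 2, 5, 9, 10, 15 or 17). Genes separated in the 13 libraries numbered 59 to 123 lower (without replicate 5, 6 or 8) and 29 to 78 higher (without replicate 2, 3, 5, 6, 7, 8, 15 or 16). Those separated again in the 4 numbered 9 to 39 lower (without replicate 2, 5, 8, 10, 12 or 17) and 11 to 24 higher (without replicate 5, 8, 10, 12 or 16). Calls within control GW3965 numbered 1 to 3 lower, 1 without replicate 9, 10, 12 or 13, and 0 to 1 higher, 1 without replicate 12 or 17.

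Without the 5 libraries of high mitochondrial share, 44 genes were lower and 26 higher over the rest, 149 and 86 were separated outside control GW3965, and 109 and 56 of these again there, where only 1 library against 1 was left. Calls within control GW3965 were then 0 lower and 2 higher, and neither was among the main 2. A filter at 50 left 3 lower genes over the 17 libraries. With a log2 difference of at least 1, there were 3 lower and 0 higher over the 17, 12 and 6 in the 13, and 4 and 2 again in the 4. With a Gm5345 threshold of 50, 1 gene was lower and 2 higher over the 17, and 7 and 11 were separated in the 13; all 4 control GW3965 libraries then fall on 1 side, so no gene could be looked at again. Without the 2 libraries with the fewest genes (replicates 6 and 16), chosen after seeing the data, 10 genes were higher over the rest, 153 lower and 99 higher were separated in the 13, and 16 and 21 again in the 4. DESeq2 called 9 lower and 7 higher within control GW3965. A fit additive in genotype, treatment and split, whose split term runs over all 17 libraries, called 12 and 3. The 4 control GW3965 libraries alone gave 1 higher call. For changes of test or fit the cause was not tested. Neither Rpl35a nor any of the 9 genes that followed the split reversed its direction within control GW3965 in these alternatives.

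Gm16348 kept its call in 27 of 29 alternatives, with log2 differences of -9.93 to -4.30, which depend on the pseudocount since replicates 9 and 10 are at 0. Rpl35a kept its call in 23 of 29: besides the 4 leave-outs, it was lost without the libraries of high mitochondrial share (adjusted p = 0.532) and in the additive fit (-1.31, adjusted p = 0.146). Bdh1 passed 0.05 in DESeq2 (adjusted p = 0.0483) and Tbcel in the additive fit (adjusted p = 0.0134), which also called Gm37163 and Pik3ap1. These genes were chosen by the values of the same libraries, so the calls are a description and not an independent test. With 2 libraries a side, a p that misses the threshold does not show that values were alike.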
